A study of Mus musculus with 4 samples.

Results

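The collagen chains were taken as the genes whose name on the array follows the pattern of collagen symbols, which is Col, a type number, the letter a and a chain number. The pattern matched 42 of the 28146 gene names on the array and 85 of its 41174 non-control probes. Of these names, 41 with 81 probes are collagen genes. The remaining name, Col4a3bp with 4 probes, is the older symbol of Cert1, a ceramide transporter that is not a collagen chain, and it was kept apart below. The lines compared were EV-50, stably transfected with the empty vector H1-2, and shGR-19, stably transfected with an shRNA vector directed against the glucocorticoid receptor (GR). Both were derived from EPH-4, a non-malignant mouse mammary epithelial cell line, were grown without serum in 2 μg/mL puromycin, and were compared in the absence of glucocorticoid to find genes that depend on unliganded GR. Each line was expanded from a single selected colony and was measured on 2 Agilent 1-colour arrays, from 300 ng RNA per labelling. Nothing in the labels tells whether the duplicates were separate cultures, so that the p-values measure the spread between arrays, which may be technical. With so few arrays the precision of every value is low. Differences between clones cannot be told apart from the effect of the shRNA.

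Collagens are secreted proteins built from 3 chains wound around each other, and the winding requires a glycine in every repeat of the chain. Fibrillar collagens such as type I, made of Col1a1 and Col1a2 chains, form the tensile fibres of connective tissue and are made mainly by fibroblasts, while type IV collagen forms the sheet of the basement membrane on which mammary epithelial cells rest. Other classes attach to fibrils, anchor the basement membrane, span the cell membrane, or carry long non-helical ends that can be released as fragments, as endostatin is from the Col18a1 chain. GR is a steroid receptor that binds DNA, and glucocorticoids have long been known to reduce collagen synthesis in connective tissue.

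Each array probe is 60 bases long, and some probes read the coding repeat itself. In 3 of the 81 collagen probes, and in 0 of the 41093 other probes, a glycine codon (GGN) came every 9 bases at least 5 times in a row. These 3 probes are shown because they carry the sequence that defines a collagen chain. The capitals mark the glycine codons of the run, and coordinates are those of the array annotation (mm9), which for these probes can span an intron.
Col11a2 probe at chr17:34189287-34189453 (+ strand): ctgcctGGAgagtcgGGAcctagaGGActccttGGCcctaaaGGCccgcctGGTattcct
Col5a1 probe at chr2:27842243-27844666 (+ strand): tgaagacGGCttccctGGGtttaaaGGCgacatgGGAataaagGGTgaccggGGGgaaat
Col5a3 probe at chr9:20590066-20590795 (- strand): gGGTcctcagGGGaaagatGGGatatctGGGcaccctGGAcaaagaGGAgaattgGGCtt
The run held 6 glycine codons in the Col11a2 probe, 6 in the Col5a1 probe and 7 in the Col5a3 probe. Probes of different chains were not near copies of each other. Of any 2 probes of different collagen genes, set side by side without gaps, the most alike shared 32 bases, which were a Col1a1 and a Col3a1 probe, and the median of the best match per probe was 27 bases. The next 4 probes are those of the type I chains, which were higher in shGR-19, and of the chains that were lower by over 2-fold. The Col15a1 probe ends at the stop codon in capitals, and the Col18a1 probe lies in the stretch that is released as endostatin.
Col1a1 probe at chr11:94812052-94812111 (+ strand): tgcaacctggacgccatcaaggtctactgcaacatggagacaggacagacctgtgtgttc
Col1a2 probe at chr6:4490619-4490678 (+ strand): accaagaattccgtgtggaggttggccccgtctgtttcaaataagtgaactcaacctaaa
Col15a1 probe at chr4:47325103-47325162 (+ strand): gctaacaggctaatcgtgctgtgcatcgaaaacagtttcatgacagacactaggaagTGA
Col18a1 probe at chr10:76516065-76516124 (- strand): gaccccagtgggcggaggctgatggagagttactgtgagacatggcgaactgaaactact

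Levels are given on a log2 scale. Scanner values are the background-subtracted signal of a probe set against the 75th percentile of all signals on its array. Values of the deposited table, called the value table here, are relative to the median of the probe over the 4 arrays. A difference is always shGR-19 minus EV-50. Nr3c1, the gene for GR, had scanner values of 1.81 and 1.92 on the EV-50 arrays and of 1.46 and -0.03 on the shGR-19 arrays. In the value table it was 1.94 lower in shGR-19 on the log2 scale (SE 0.05, limma adjusted p = 0.00215). The arrays are called EV-50 array 1 and 2 and shGR-19 array 1 and 2 after the replicate numbers on their labels. For the arrays numbered 1, the 2 deposited sources did not match. Over 10267 brighter probes, EV-50 array 1 and shGR-19 array 1 were apart by an SD of only 0.0801 in the scanner files, with 0 probes over 2-fold. The same SD was 0.446, with 309 probes over 2-fold, for the arrays numbered 2. Across these probes, differences in the scanner files and in the same columns of the table were correlated at 0.954 for the arrays numbered 2 and at 0.131 for those numbered 1. In the table the duplicates of EV-50 differed by an SD of 0.0961 and those of shGR-19 by 0.0854. In the scanner files these SDs were 0.516 and 0.621, which is more than between the lines on the arrays numbered 2. Collagen genes called at over 2-fold are therefore given from the scanner files, by array, and from the table, and most others from the table alone.

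The epithelial identity on the labels was checked on markers. Of 10 luminal epithelial markers, 9 were well above background on all 4 arrays, among them Epcam, Cdh1, Krt8 and Krt18, and so were the basal keratins Krt5 and Krt14. The leukocyte gene Ptprc and the endothelial gene Pecam1 were well above background on no array.

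Collagen probes were detected less often than probes as a whole. A probe was kept if both arrays of either line showed it well above background. This held for 35 of the 81 collagen probes (43.2%) against 59.4% of all probes, and these 35 probes belonged to 28 genes. Of the collagen probes, 27 were well above background on all 4 arrays and 29 on none. By gene, 21 had a probe detected on all 4 arrays, 14 had one on 1 to 3 arrays at best, and 6 (Col6a6, Col10a1, Col14a1, Col19a1, Col24a1 and Col28a1) had none on any array. The number of collagen probes well above background was 28 and 41 on the EV-50 arrays and 36 and 49 on the shGR-19 arrays. It was thus higher on the arrays numbered 2 in both lines. Over all 43379 non-control spots the count was also higher there, at 23290 and 26800 in EV-50 and at 26745 and 27358 in shGR-19. Genes with no kept probe but a probe detected on some array were Col1a1, Col3a1, Col4a3, Col5a2, Col8a2, Col9a1 and Col17a1. Col6a3, Col6a5, Col21a1 and Col26a1 had no probe whose name fits the pattern.

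In the value table, type I, type II, type VIII and type XII chains were higher in shGR-19 and the chains of types XV and XVIII were lower. Of the 35 kept collagen probes, 4 were higher by over 2-fold at a limma adjusted p below 0.01, where 1.87% of the 24436 kept probes were, and 3 were lower, where 2.39% were. The higher probes belonged to Col1a2, Col2a1, Col8a1 and Col12a1. The lower probes belonged to Col15a1 and, with 2 probes, to Col18a1. Without the fold limit 8 collagen probes were higher (5.52% of kept probes) and 5 were lower (6.04%). Taking the brightest kept probe of each gene, 6 genes were higher (6.1% of 16755 genes) and 3 were lower (6.51%). Most chains differed little, since 23 of the 28 genes were within 2-fold. The median difference of the 28 genes was 0.24 on the log2 scale, beside 0.02 for all kept genes, with 17 genes higher and 11 lower.

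**Figure D1:**
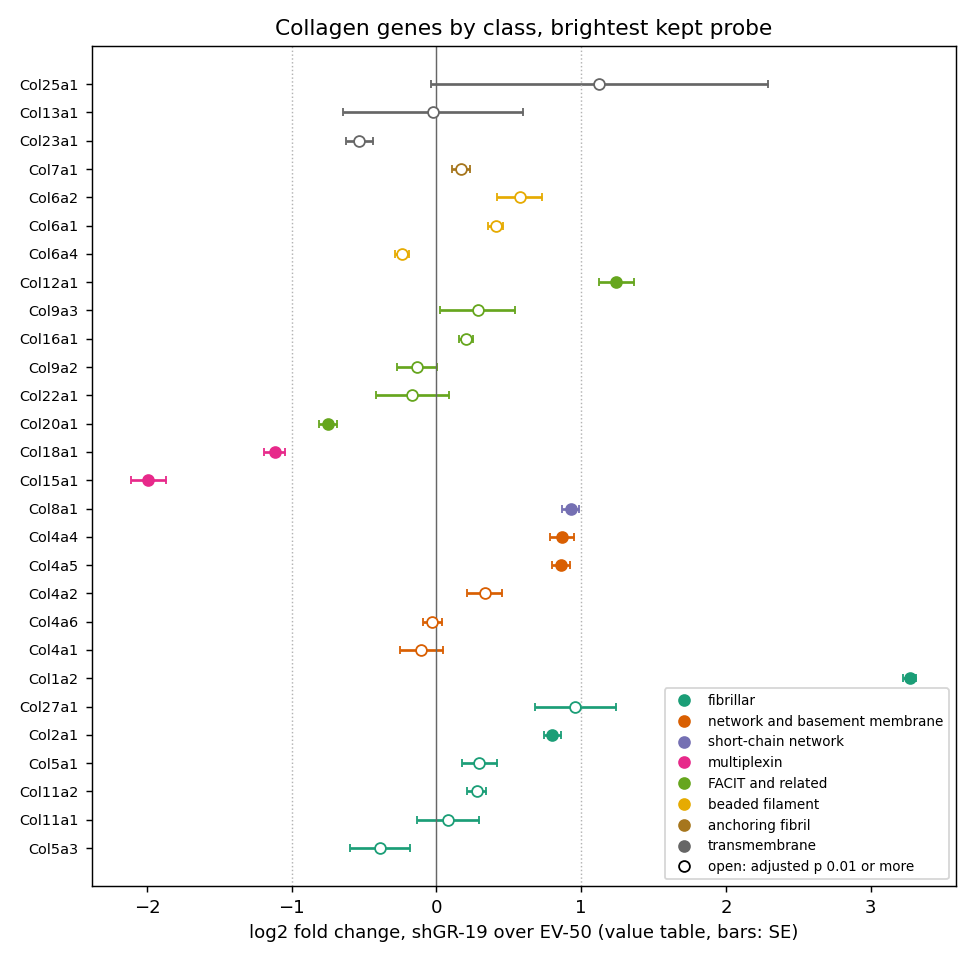
Differences of the 28 collagen genes with a kept probe, as the log2 fold change of shGR-19 over EV-50 in the value table for the brightest kept probe of each gene, grouped and coloured by collagen class. Bars are SE, filled points have a limma adjusted p below 0.01 and dotted lines mark 2-fold. Col1a2 stands at 3.27 and Col15a1 at -1.99, and 23 genes lie within 2-fold.

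In the scanner files limma called 0 collagen probes in either direction, as it called 0% of all kept probes. At an unadjusted p below 0.05, 0 collagen probes were higher (0.622% of kept probes) and 0 were lower (0.233%), and an equal-variance t-test without adjustment called 0 at over 2-fold and p below 0.01. By size alone 20 genes were higher and 8 lower, with a median of 0.11 and a range from -1.36 to 1.66. Between the arrays numbered 2, 21 genes were higher, the median difference was 0.26, and 18 genes had the sign that they had in the table. Between the arrays numbered 1, 14 genes were higher, the median was -0.01, and 13 had the sign of the table. Past 2-fold, the pair numbered 2 had 3 genes higher (2.58% of kept genes) and 2 lower (3.39%). The pair numbered 1 had 2 genes higher (2.55%) and 2 lower (1.22%).

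**Figure D2:**
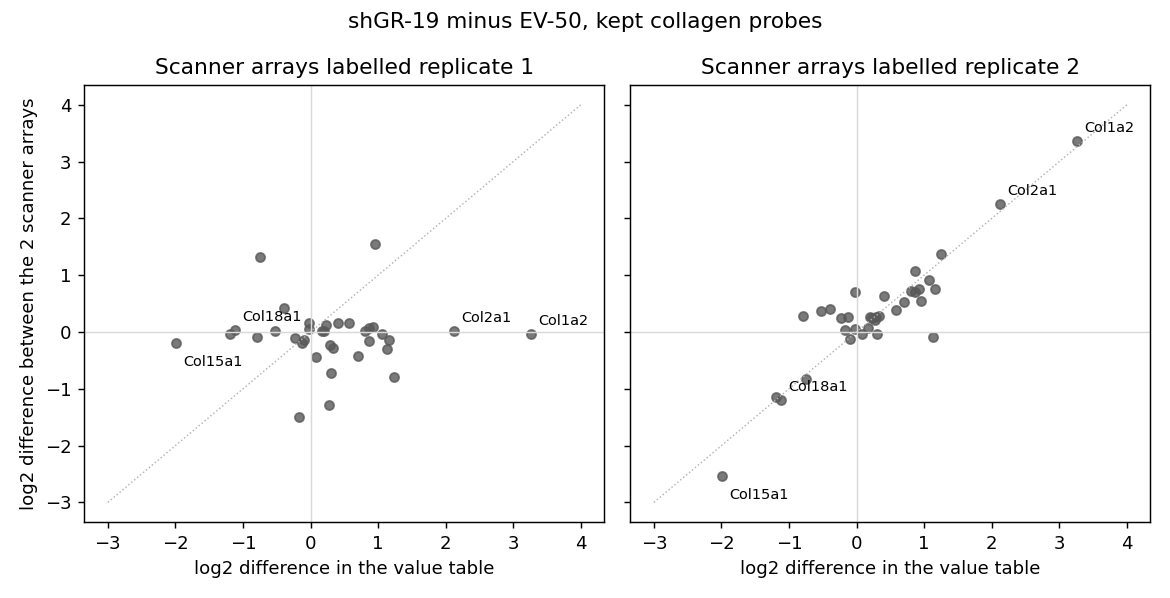
Difference of shGR-19 minus EV-50 for the 35 kept collagen probes between the 2 scanner arrays numbered 1 (left) and replicate 2 (right), against the difference in the value table, all on the log2 scale. The dotted line marks equal values. Col1a2, Col2a1 and Col15a1 lie near the line for the arrays numbered 2 and near 0 for those numbered 1.

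Type I collagen had both of its chains higher in shGR-19, and Col1a2 had the greatest difference of the kept collagen probes. The Col1a2 probe was well above background on all 4 arrays. Its scanner values were 0.68 and 1.56 on the EV-50 arrays and 0.64 and 4.93 on the shGR-19 arrays. The shGR-19 array 2 stood apart from the other three, which lay close together. In the value table Col1a2 was -1.64 and -1.63 in EV-50 and 1.64 and 1.63 in shGR-19, which is 9.63-fold higher in shGR-19 (log2 3.27, SE 0.05, limma adjusted p = 0.00120). The scanner fit gave 1.66 with an SE of 1.49, from a difference of -0.04 between the arrays numbered 1 and of 3.37 between those numbered 2.

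Col1a1, the chain that pairs with Col1a2, failed the filter in the main comparison because 2 of its probes were well above background on only 1 array of each line and the third probe on only 1 array in all. When probes detected on at least 1 array numbered 2 were kept, an alternative added after these values were seen, 51 collagen probes entered. Of them 9 were called higher by over 2-fold (1.82% of 26576 probes) and 3 lower (2.28%). Of the 9, 2 (the third Col1a1 probe and a Col4a3 probe) entered only through the array on which they were bright, so that their number is no measure of how often collagens differed. The repeated Col1a1 probe, spotted 10 times on each array, had scanner values of -6.34 and -3.69 in EV-50 and -6.08 and 1.92 in shGR-19. Its table values were -2.80 and -2.78 in EV-50 and 2.78 and 2.78 in shGR-19. The lines were far apart in the table, whereas on the scanner arrays only shGR-19 array 2 was bright. The difference in the table was 47.5-fold (log2 5.57, adjusted p = 0.00198 with limma under this filter, and 0.00834 with all probes kept). The Col1a1 probe whose sequence is given above had scanner values of -4.82 and -5.22 in EV-50 and -6.05 and 0.26 in shGR-19, and was 34.3-fold higher in the table (limma adjusted p = 0.00386). The third Col1a1 probe, with scanner values of -6.82 and -7.32 in EV-50 and -6.58 and -4.35 in shGR-19, was well above background on shGR-19 array 2 alone, so that no fold is given. With all probes of the array kept, 2 collagen probes were called higher (0.0364% of 41174) and 0 lower (0.068%), and these were the repeated Col1a1 probe and Col1a2.

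Type I collagen is a product of fibroblasts, and markers of that cell type were therefore set beside it. Of 12 fibroblast markers 7 were kept, and 3 of these were higher (2.16% of kept genes) and 1 was lower (2.7%) by over 2-fold in the table. They were the growth factor receptors Pdgfrb (log2 2.03, limma adjusted p = 0.00232) and Pdgfra (log2 1.16, adjusted p = 0.00384) and the filament protein Vim (log2 1.82, adjusted p = 0.00947). Pdgfra was kept only through shGR-19, since it was not well above background on EV-50 array 1 (scanner value -5.74). Fbn1, the microfibril protein, was lower (log2 -2.15, limma adjusted p = 0.00279). Dcn, Fap and Mfap5 were well above background on no array. The summed scaled signal of the 12 markers was 146 and 30.7 on the EV-50 arrays and 160 and 34.7 on the shGR-19 arrays. Most of it came from S100a4, a calcium-binding protein, which differed by -0.19 in the table (limma adjusted p = 0.0765). The other 11 summed to 0.848 and 3.97 on the EV-50 arrays and 0.759 and 16.0 on the shGR-19 arrays. On the arrays numbered 2 most of this sum was Pdgfrb alone, with scanner values of 1.78 in EV-50 and 3.94 in shGR-19. The sum was highest on shGR-19 array 2, as Col1a1 and Col1a2 were. The part of other cells or of a change of cell state in the type I difference was not tested, and in bulk RNA fewer cells of a type and less RNA per cell cannot be told apart.

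**Figure D3:**
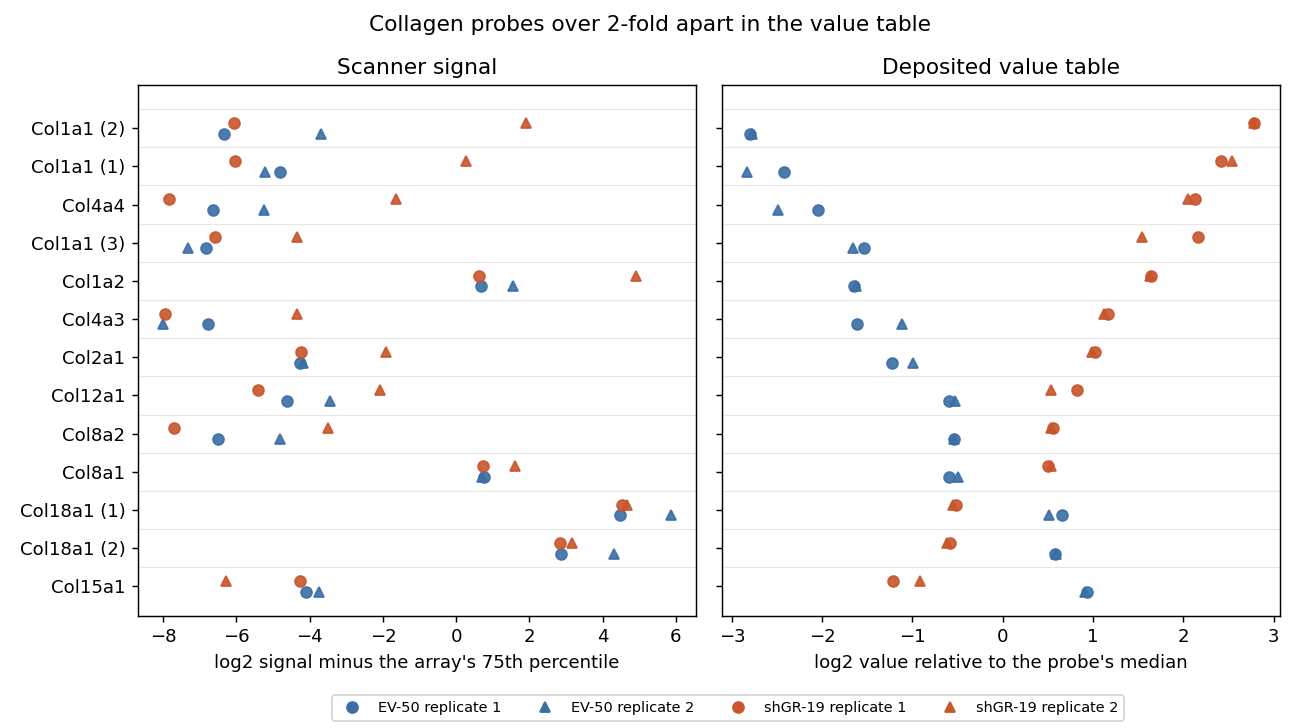
Values by array of the 13 collagen probes over 2-fold apart at a limma adjusted p below 0.01 in the value table, under the main filter or the added one. The scanner signal relative to the 75th percentile of each array is on the left, the deposited value relative to the probe median on the right, both on a log2 scale. Circles are the arrays numbered 1, triangles those numbered 2, and a number in brackets tells probes of a gene apart. The third Col1a1 probe and Col4a3 were well above background on shGR-19 array 2 alone. In the table the lines are apart for every probe, while on the scanner arrays the circles of the 2 lines lie within 1.23 of each other.

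Of the other fibrillar chains, Col2a1, the chain of cartilage collagen, was higher with both of its kept probes. The probe spotted 10 times had scanner values of -4.27 and -4.17 in EV-50 and -4.25 and -1.92 in shGR-19, so that again a single array was bright. Its table values were -1.23 and -0.99 in EV-50 and 1.02 and 0.99 in shGR-19, a 4.34-fold difference (limma adjusted p = 0.00364). The brighter Col2a1 probe, which overlaps it, was 1.74-fold higher (limma adjusted p = 0.00579), so the 2 probes had the same direction and differed in size. Col3a1, the chain of type III collagen, which is found in fibrils with type I, had 1 probe detected, and on shGR-19 array 2 alone. Its scanner values were -5.38 and -6.74 in EV-50 and -6.91 and -4.37 in shGR-19, and no fold is given. Col27a1 was 1.94-fold higher and did not pass the test (limma adjusted p = 0.0750). The Col27a1 probe was kept only through shGR-19, since it was not well above background on EV-50 array 1 (scanner value -6.90).

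Chains that regulate fibril width did not pass the test in a single direction. Col5a1 differed by 0.30 on the log2 scale (limma adjusted p = 0.146), Col5a3 by -0.39 (adjusted p = 0.225) and Col11a1 by 0.08 (adjusted p = 0.798). The 2 kept Col11a2 probes went in opposite directions. The brighter was at 0.28 (limma adjusted p = 0.0454), and the one that reads the glycine repeat shown above was at -0.79 (adjusted p = 0.00674). Col5a2, which lies next to Col3a1 on the chromosome in the RefSeq annotation, was detected on the arrays numbered 2 alone and differed by 0.75 (limma adjusted p = 0.0578 under the added filter).

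Among the basement membrane chains, which pair in set combinations and lie head to head in the genome, Col4a4 and Col4a5 were higher while Col4a1, Col4a2 and Col4a6 were not called. Col4a4 had a kept probe with scanner values of 1.51 and 1.09 in EV-50 and 1.35 and 1.79 in shGR-19. It was 1.83-fold higher in the table (log2 0.87, SE 0.08, limma adjusted p = 0.00870). A second Col4a4 probe had scanner values of -6.63 and -5.26 in EV-50 and of -7.85 and -1.65 in shGR-19, and was 20.5-fold higher (adjusted p = 0.00469 with limma under the added filter). It was well above background only on the arrays numbered 2. Its EV-50 value there was near the lowest detected signal of that array (-5.88), so the size of the fold is uncertain. The direction was shared by the 2 probes and the size was not. Col4a3, the head-to-head neighbour of Col4a4, was detected with 2 probes on shGR-19 array 2 alone. The first had scanner values of -6.78 and -7.99 in EV-50 and -7.94 and -4.34 in shGR-19. The other had -6.96 and -5.92 in EV-50 and -8.10 and -2.59 in shGR-19. Because EV-50 was not above background with either probe, no fold is given for Col4a3.

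The chain Col4a5 was 1.82-fold higher in the table (limma adjusted p = 0.00569), with differences of 0.08 and 1.08 between the scanner arrays numbered 1 and 2. Its neighbour Col4a6 differed by -0.03 with the brightest of its probes (limma adjusted p = 0.766). A dimmer Col4a6 probe was well above background only on EV-50 array 2. Its scanner values were -5.52 and -4.28 in EV-50 and -6.22 and -6.95 in shGR-19, and no scanner fold is given. In the table it differed by -0.26 (limma adjusted p = 0.0955 under the added filter). Col4a1 and Col28a1 probes that were well above background on no array also differed by -0.27, and a Col10a1 probe by 0.63. The ubiquitous chains Col4a1 and Col4a2, also neighbours, differed by -0.10 (limma adjusted p = 0.632) and 0.33 (adjusted p = 0.119). The Col4a2 probe was kept only through shGR-19, since it was well above background on no EV-50 array (scanner values -5.03 and -5.74).

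Type VIII collagen, a short-chain collagen of vessel walls and of the membrane beneath the corneal endothelium, was higher in shGR-19 by about 2-fold with both kept Col8a1 probes. The first had scanner values of 0.77 and 0.69 in EV-50 and of 0.73 and 1.61 in shGR-19, and was 2.09-fold higher in the table (limma adjusted p = 0.00420). The brighter had 6.89 and 6.93 in EV-50 and 6.98 and 7.69 in shGR-19, and was 1.90-fold higher (limma adjusted p = 0.00472). Both probes were tight on 3 arrays and higher on shGR-19 array 2. The partner chain Col8a2 had scanner values of -6.51 and -4.80 in EV-50 and -7.71 and -3.51 in shGR-19, and was 2.12-fold higher in the table (adjusted p = 0.00493 with limma under the added filter). The Col8a2 probe was well above background only on the arrays numbered 2.

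The multiplexins Col15a1 and Col18a1, which belong to the basement membrane zone, were the chains that were lower in shGR-19 by over 2-fold. Col15a1 had scanner values of -4.09 and -3.75 in EV-50 and -4.27 and -6.28 in shGR-19. The shGR-19 array 2 was the lowest and the only one not well above background, so that the probe was kept only through EV-50. In the table the values were 0.94 and 0.92 in EV-50 and -1.21 and -0.92 in shGR-19, a 3.97-fold difference (log2 -1.99, SE 0.12, limma adjusted p = 0.00469). Col18a1 had scanner values of 4.49 and 5.86 in EV-50 and 4.53 and 4.66 in shGR-19. Here it was EV-50 array 2 that stood above the other three. The table gave a 2.17-fold lower value in shGR-19 (limma adjusted p = 0.00486). The second Col18a1 probe, in the endostatin stretch, had scanner values of 2.87 and 4.31 in EV-50 and 2.84 and 3.17 in shGR-19 and was 2.28-fold lower in the table (adjusted p = 0.00317 with limma).

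The chains that attach to the surface of fibrils were split. Col12a1, which binds type I fibrils, had scanner values of -4.63 and -3.45 in EV-50 and -5.42 and -2.07 in shGR-19, and the lines overlapped. In the table it was 2.37-fold higher (limma adjusted p = 0.00884), a call lost under the added filter (adjusted p = 0.0123 with limma). Its other kept probe was 1.63-fold higher (limma adjusted p = 0.110). That probe was kept only through shGR-19, since it was not well above background on EV-50 array 1 (scanner value -4.85). Col20a1 was 1.68-fold lower in the table (limma adjusted p = 0.00731), with differences of 1.32 and -0.82 between the scanner arrays numbered 1 and 2. Col9a2, Col9a3, Col16a1 and Col22a1 did not pass the test, with differences from -0.17 to 0.29.

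Among the remaining classes no gene passed the test with its brightest probe. Col7a1, which forms the anchoring fibrils beneath epithelia, differed by 0.17 (SE 0.06, limma adjusted p = 0.117) and by 0.01 and 0.07 between the scanner arrays of each number. Of the beaded filament chains, Col6a1 differed by 0.41 (limma adjusted p = 0.0146) and Col6a2 by 0.58 (adjusted p = 0.0637). The 2 kept Col6a4 probes went in opposite directions, at -0.24 (limma adjusted p = 0.0348) and 1.15 (adjusted p = 0.0136). Of the transmembrane chains Col23a1 differed by -0.53 (limma adjusted p = 0.0258). Col13a1 and Col25a1 differed by -0.02 and 1.13, with an SD between the 2 shGR-19 columns of 1.16 and 2.18. Col17a1, the hemidesmosome collagen of basal epithelial cells, was detected on shGR-19 array 2 alone, and so was Col9a1, so that no fold is given for either. The non-collagen Col4a3bp had 3 kept probes, which differed by -0.39 to 0.02 in the table (limma adjusted p from 0.0756 to 0.752).

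Promoter sequences were searched for short motifs, since GR acts on DNA. RefSeq promoters (GRCm38.p6) matched 33 of the 41 collagen genes by symbol, with 36 promoters, and the 250 bases before each start were read on both strands. Col1a1, Col2a1, Col4a3 and Col12a1 were among the genes without a match and were not searched. The full glucocorticoid response element, in which AGAACA faces its mirror image across 3 bases, was found in 0 of the 36 and in 0.00913% of all 32851 promoters. The single arm AGAACA was found in 2 genes, Col9a1 and Col20a1, and in 16.1% of all promoters. A CCAAT box (CCAAT) was found in 13 of the 36 and in 33.8% of all promoters, and a GC box (GGGCGG) in 21 and in 32.7%. A TATA box (TATAAA) was found in 5 and in 12.4% of all. These are matches of letters in a short window and not sites of binding. The promoters of 2 chains that were higher and of 2 that were lower are shown, with CCAAT and GC boxes on either strand in capitals.
Col1a2 promoter at chr6:4505368-4505617 (+ strand): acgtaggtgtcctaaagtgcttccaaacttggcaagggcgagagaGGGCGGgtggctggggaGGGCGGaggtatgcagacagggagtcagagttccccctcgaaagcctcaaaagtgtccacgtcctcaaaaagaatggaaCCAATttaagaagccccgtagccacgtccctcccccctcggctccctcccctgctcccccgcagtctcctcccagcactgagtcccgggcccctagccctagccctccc
Col4a4 promoter at chr1:82586850-82587099 (- strand): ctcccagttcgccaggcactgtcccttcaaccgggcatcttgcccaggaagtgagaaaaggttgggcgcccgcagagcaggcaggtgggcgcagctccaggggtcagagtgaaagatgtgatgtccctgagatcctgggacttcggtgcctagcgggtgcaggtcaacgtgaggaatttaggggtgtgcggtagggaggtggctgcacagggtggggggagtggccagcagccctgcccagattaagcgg
Col15a1 promoter at chr4:47207762-47208011 (+ strand): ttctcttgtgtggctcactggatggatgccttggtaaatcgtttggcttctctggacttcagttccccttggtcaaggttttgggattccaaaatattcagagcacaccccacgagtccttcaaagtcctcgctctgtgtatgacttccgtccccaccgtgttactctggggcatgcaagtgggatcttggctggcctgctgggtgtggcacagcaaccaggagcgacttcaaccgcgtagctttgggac
Col18a1 promoter at chr10:77166531-77166780 (- strand): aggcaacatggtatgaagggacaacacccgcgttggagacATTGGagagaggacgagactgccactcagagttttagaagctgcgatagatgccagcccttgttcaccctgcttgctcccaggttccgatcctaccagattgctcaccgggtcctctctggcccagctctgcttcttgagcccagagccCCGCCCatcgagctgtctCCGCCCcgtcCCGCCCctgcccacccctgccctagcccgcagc
The Col1a2 window held 1 CCAAT box and 2 GC boxes, and the Col18a1 window held 1 CCAAT box and 3 GC boxes. The Col4a4 and Col15a1 windows held none of these motifs. A second RefSeq start of Col18a1 held none either. The windows of Col8a1 and Col8a2, which were also higher and are not shown, held 4 GC boxes each and no CCAAT box. Among the few genes named here, windows with and without these motifs thus occurred in both directions.

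Genes that make, mature, bind or cut collagen were read from 5 lists with 63 members, of which 41 were kept. By over 2-fold at a limma adjusted p below 0.01, 5 were higher and 2 lower in the value table (2.16% and 2.7% of the kept genes). Of the 5, Mmp2 and Adamts2 were kept only through shGR-19, the line in which they were higher. In the scanner files limma called 0 of the 41 kept genes. Without the fold limit 9 were higher and 6 lower (6.1% and 6.51%). Among the 16 kept biosynthesis genes, Serpinh1, the collagen chaperone of the endoplasmic reticulum known as HSP47, was 2.64-fold higher (limma adjusted p = 0.00353). Plod2, which hydroxylates lysines of the chain ends for cross-links, was 2.22-fold lower (limma adjusted p = 0.00394). The prolyl hydroxylases split, with P4ha1 1.51-fold higher (limma adjusted p = 0.00835) and P4ha2 1.97-fold lower (adjusted p = 0.00358). So did 2 partners of 1 prolyl 3-hydroxylase complex, Crtap, 1.42-fold higher (limma adjusted p = 0.00863), and Lepre1, 1.76-fold lower (adjusted p = 0.00848). The other kept P4ha1 probe differed by 0.56 and was not called (limma adjusted p = 0.015).

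Among the 8 kept maturation genes, Adamts2, the protease that removes the N-terminal propeptide of fibrillar collagens, was 3.26-fold higher (limma adjusted p = 0.00563). Its other kept probe differed by 0.08 (limma adjusted p = 0.883), so that the 2 probes disagree. The higher Adamts2 probe was kept only through shGR-19, since it was not well above background on EV-50 array 2 (scanner value -6.53). Loxl4, a cross-linking oxidase, was 1.73-fold higher and Pcolce, an enhancer of C-propeptide removal, 1.80-fold lower (limma adjusted p = 0.00491 and 0.00896). Lox itself was well above background on no array. Of the 8 kept fibril partners, Ogn, a small leucine-rich proteoglycan, was 4.40-fold higher, and Sparc, a collagen-binding matrix protein, was 2.44-fold higher (limma adjusted p = 0.00253 and 0.00306). Postn, a matrix protein that binds type I collagen, was 3.30-fold lower (limma adjusted p = 0.00253).

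Of the 5 kept collagen receptors none passed 2-fold, and Ddr2, a receptor kinase for fibrillar collagen, was 1.76-fold lower (limma adjusted p = 0.00588). Ddr1, its epithelial relative, differed by 0.07 (limma adjusted p = 0.360). Of the 4 kept degradation genes, Mmp2, a gelatinase, was 4.94-fold higher (limma adjusted p = 0.00515). Mmp2 was kept only through shGR-19, since it was not well above background on EV-50 array 2 (scanner value -5.80). Mmp14, which activates Mmp2, was 1.42-fold higher (limma adjusted p = 0.00882). Its other kept probe differed by 0.45 and was not called (limma adjusted p = 0.0188). Between the scanner arrays numbered 2, Serpinh1 differed by 1.32, Sparc by 1.28, Ogn by 2.05, Mmp2 by 1.62, Adamts2 by 1.94, Plod2 by -1.17 and Postn by -1.63. Between those numbered 1 the same 7 genes differed by -1.39 to 0.41, and Mmp2, at -1.39, and Sparc, at -0.04, opposed their table values.

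**Figure D4:**
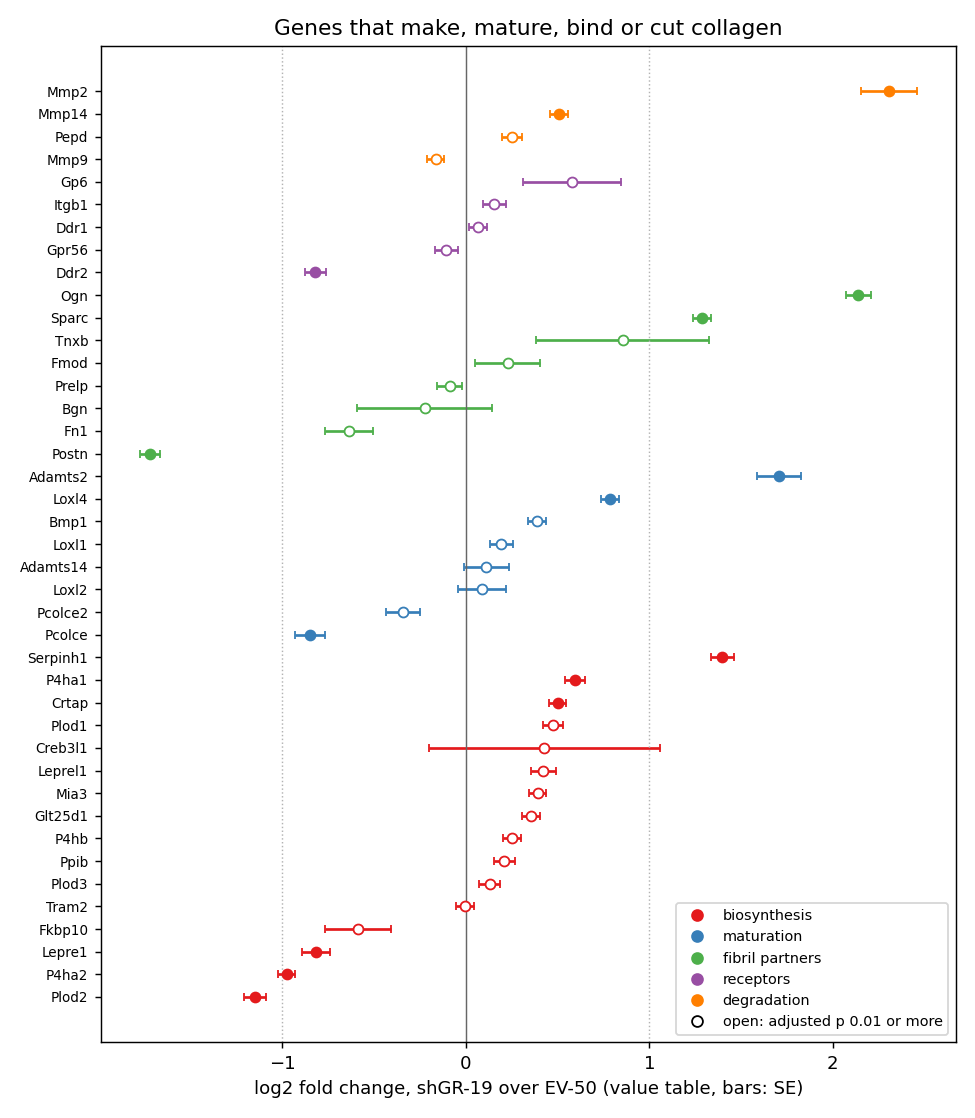
Differences of the 41 kept genes of the 5 collagen pathway lists, as the log2 fold change of shGR-19 over EV-50 in the value table. Bars are SE, colours are the lists, filled points have a limma adjusted p below 0.01 and dotted lines mark 2-fold. Mmp2, Ogn, Adamts2, Serpinh1 and Sparc lie above 2-fold and Postn and Plod2 below.

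All calls in the value table rest on 2 columns a line. Without any 1 of the 4 columns, limma at the same thresholds called 0 collagen probes, while at an unadjusted p below 0.05 and over 2-fold 5 to 7 were higher and 3 lower. With all 4 columns those counts were 5 (2.41% of kept probes) and 3 (3.11%).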

How the data were processed

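Cy3-labelled RNA of EV-50 and shGR-19 was measured on 4 arrays, which shared 1 slide and 1 scan. The authors deposited scanner files with the background-subtracted intensity of each spot (Agilent Feature Extraction 10.5.1.1, not scaled between arrays, 0 saturated spots), together with a GeneSpring table on the log2 scale, in which each probe was centred on its median and whose columns had medians of 0.08, 0.04, -0.06 and -0.06. Its columns were matched to the arrays by their sample labels, and its exact scaling is not given in the sources used here. For the scanner files, the 75th percentile of each array was subtracted from log2 intensity after control and outlier-flagged spots had been dropped, and repeated spots of a probe were averaged. A probe was kept if both arrays of either line showed it well above background. Lines were compared with limma 3.58.1 (R 4.3.3; lmFit, eBayes) and Benjamini-Hochberg adjustment over all 24436 kept probes. The fold of 2 and the p of 0.01 are those of the methods, applied here to adjusted p. A gene with several kept probes was represented by the brightest. In data simulated from 24433 probes, 70 of 100 probes changed by 1.5 and 88 of 100 changed by 3 on the log2 scale were called with the spread of the value table, and 0 with that of the scanner files. Named genes were all collagen genes with a kept probe, pathway genes called at over 2-fold, and further genes with a role given. The genes, gene lists and tests were chosen with earlier results of these data known. Alternatives were normexp with an offset of 50, quantile normalization, other filters, a robust prior with an intensity trend (statmod 1.5.0), the replicate block, each array left out, other thresholds, an equal-variance t-test and the mean of a gene's probes. The filter on the arrays labelled replicate 2 was added after the data were seen.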

Additional observations from a re-analysis of the deposited data

How the results depend on the processing

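The arrays numbered 1 limit the scanner values. Dim signals limit the size of differences in Col1a1, Col3a1, Col4a2, Col4a3, Col8a2 and the dimmer Col4a4 probe. The 2 replicate numbers give too few pairs to establish a pairing (same-numbered arrays deviated with a correlation of 0.706 in the scanner files and 0.430 in the table). No scanner setting gave a collagen call (0 in each direction with every filter, scaling, threshold and test). The value table in place of the scanner files gave 4 collagen probes higher and 3 lower, 5 pathway genes higher and 2 lower, and Nr3c1 at -1.94. In the table the count of collagen probes higher was 2 with all probes kept, 9 with the added filter, 8 without the fold limit, and 0 with the replicate block or with an equal-variance t-test after Benjamini-Hochberg adjustment. The count lower was 0 with all probes kept, 5 without the fold limit, and 0 with the replicate block or the adjusted t-test. At an unadjusted p below 0.05 and over 2-fold, the block and the t-test each gave 5 higher and 3 lower. Pathway genes counted 9 higher and 6 lower without the fold limit and 0 and 0 with the replicate block (5 and 2 unadjusted). The table median was 0.28 with all probes, 0.29 with probes detected on all 4 arrays and 0.30 with the added filter. Nr3c1 stayed at -1.94 with all probes (limma adjusted p = 0.0113) and with the block (adjusted p = 0.0293). The cause of these changes was not tested, beyond the different probes and degrees of freedom that the settings have.

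Leaving out 1 array gave counts of 0 to 0 for collagen probes and pathway genes in both sources. Leaving out 1 array, or both arrays of a number (for which no count was made), the median ranged from -0.10 to 0.42 in the scanner files and from 0.18 to 0.27 in the table, and Nr3c1 from -1.95 to -0.35 and from -1.95 to -1.92. Log2 differences that changed sign ranged as follows in the scanner files: Col11a2 -1.28 to 0.21, Col12a1 -1.38 to 1.97, Col16a1 -1.76 to 2.05, Col18a1 -1.26 to 0.11, Col1a2 -0.48 to 3.81, Col20a1 -1.08 to 1.58, Col22a1 -1.69 to 0.23, Col4a2 -0.35 to 0.35, Col5a1 -0.82 to 0.0623, Col6a1 -0.17 to 0.96, Col6a4 -0.10 to 0.25, Col7a1 -0.38 to 0.46, Col9a2 -0.20 to 0.26 and Col9a3 -0.53 to 0.57. In the table they were Col11a1 -0.21 to 0.37, Col13a1 -0.85 to 0.80, Col22a1 -0.49 to 0.16, Col25a1 -0.52 to 2.77, Col4a1 -0.29 to 0.0788, Col4a6 -0.0862 to 0.0308, Col9a2 -0.34 to 0.0778 and Col9a3 -0.0542 to 0.62. Other sign changes in the scanner files came with normexp for Col13a1 (-0.0008), Col20a1 (-0.17), Col5a3 (-0.0089) and Col9a3 (-0.0182), and with the detected percentile for Col4a2 (-0.0001). The table in place of the scanner files turned Col11a1 (0.0804), Col11a2 (0.28), Col13a1 (-0.0245), Col20a1 (-0.75), Col23a1 (-0.53), Col25a1 (1.13), Col4a6 (-0.0277), Col5a1 (0.30), Col5a3 (-0.39), Col6a4 (-0.24) and Col9a2 (-0.13). The mean of a gene's probes turned Col11a2 (-0.26), Col4a6 (0.10) and Col6a4 (0.46) in the table.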
